A study of Mus musculus with 18 samples.

Results

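The genes described here code for the core proteins of the spliceosomal small nuclear ribonucleoproteins (snRNPs). They were chosen by symbol, as every gene whose name begins with Snrp, Sf3a, Sf3b, Prpf, Lsm or U2af and that has a probe set assigned to it alone by the platform annotation. The rule gave 45 genes of the 18194 measured in this way, with 106 probe sets among them, and each gene was represented by its probe set with the highest mean over 17 arrays. Grouped by role, they were 6 proteins of the Sm ring, 6 of the U6 LSm ring, 6 other LSm proteins, 3 U1 proteins, 11 U2 proteins, 3 members of the U2AF family, 9 proteins of the U4/U6.U5 tri-snRNP and Prpf19. Snrpd1, Snrpd2, Snrpa and Lsm5 have only probe sets shared with other symbols and were left outside. Lsm1, Lsm12, Lsm14a and Lsm14b match the rule by name but are known from cytoplasmic messenger RNA rather than from the spliceosome, and Lsm10 and Lsm11 belong to the U7 particle of histone messenger RNA processing.

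Satellite cells, the stem cells of skeletal muscle, were sorted by syndecan-3 from the tibialis anterior muscle of female mice aged 3 to 6 months. Wild type (WT) mice were B6D2F1/J, a cross of C57Bl/6 and DBA2, and Sdc4-/- mice carried a homozygous deletion of syndecan-4 in C57Bl/6, so that genotype and strain cannot be told apart. Cells of each genotype came from uninjured muscle and from muscle taken 12 h or 48 h after an injection of 1.2% barium chloride, with 3 arrays in each of the 6 groups. The study removed 1 array of uninjured WT cells for clustering with the 12 h arrays, and replicate 3 of that group was left out here, which leaves 17 arrays and 2 for uninjured WT cells. The labels do not say whether the arrays of a group came from separate animals, so the p-values measure the spread between these arrays, which may be technical.

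Splicing is carried out by a set of snRNPs, each built from a small nuclear RNA and its proteins. A ring of Sm proteins wraps the U1, U2, U4 and U5 RNAs, and a ring of LSm proteins holds the end of U6. U1 marks the start of an intron, U2AF and U2 with its SF3a and SF3b complexes mark the branch point, and the U4/U6.U5 tri-snRNP then joins and is rearranged into the catalytic machine with the help of the Prp19 complex. Most of these proteins are needed in every cell, satellite cells included.

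Several measures of the arrays moved with the groups, so that they cannot be told apart from injury and time, and they stand beside every result on the WT 12 h cells. The mean log2 value of 18 hybridization-control probe sets, which measure material added to each sample before hybridization, was 13.5 to 14.3 on the WT 12 h arrays, 11.7 to 12.5 on the WT 48 h arrays, and 7.86 and 8.94 on the uninjured WT arrays used. It was 12.8 on the array left out and 8.74 to 12.3 over the 9 Sdc4-/- arrays. Probe sets that read over 5 on the log2 scale were fewest in WT 12 h cells, at 2832 to 3982, against 7213 and 7620 in uninjured WT cells. The 3′ probe set of Actb, a common RNA quality control, was at 3.98 on WT 12 h replicate 2 and at 8.37 to 13.4 on the other arrays. Of 6 macrophage markers, 5 or 6 were above 5 on each WT 48 h and Sdc4-/- array, 2 to 6 on uninjured WT arrays and at most 1 on the WT 12 h arrays, where Csf1r averaged 2.95 and Adgre1 2.84. The 12 satellite cell markers were low throughout, with 5 or 6 above 5 on the uninjured WT arrays used and at most 1 on the WT 12 h arrays. Pax7, the defining satellite cell factor, averaged 4.87 in uninjured WT cells and 2.40 to 2.60 in the other 5 groups. Sdc4 itself averaged 4.64, 4.03 and 7.66 in uninjured, 12 h and 48 h WT cells and 4.20, 4.71 and 4.92 in Sdc4-/- cells, so this probe set separated the genotypes clearly at 48 h alone. Markers of other cell types also differed. Over 6 fibroblast markers the median was 8.17 and 8.90 on the uninjured WT arrays used. It was 3.31 to 4.37 on the WT 12 h arrays. Over 6 pericyte and smooth muscle markers it was 8.19 and 6.91, then 3.82 to 5.30. Over 6 myofibre markers these arrays overlapped, at 3.86 and 5.62, then 3.72 to 4.78. Over 4 neutrophil markers it was 3.85 to 7.56 in WT and 8.64 to 10.68 in Sdc4-/- cells at 12 h. The part of these differences in the results below was not tested.

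Like other genes whose mean log2 value over the arrays reached 4, the snRNP genes were low in WT cells 12 h after injury. At 48 h 1 of 45 members (2.22%) was called below uninjured WT cells, against 9.39% of all genes. The number of members above a log2 value of 5 was 26 and 26 on the uninjured WT arrays, 15, 9 and 12 on the 12 h arrays, and 29, 23 and 28 on the 48 h arrays. In Sdc4-/- cells it was 24 to 28, then 19 to 22, then 29 to 33. WT 12 h cells had the lowest of the 6 group means for 24 of 45 members, and Sdc4-/- 48 h cells had the highest for 20. Among genes whose mean log2 value over the arrays reached 4, WT 12 h cells were lowest for 64.7% of 34 members and 56.7% of all 6279 genes, and Sdc4-/- 48 h cells were highest for 47.1% and 35.3%. Since a log2 value near 3 to 4 is at the background of these arrays, the 12 h level of many members is close to the floor of the measurement, and the size of a fall to it or of a rise from it depends on the floor of that probe set. In a bulk sample, fewer cells of a type and less RNA per cell cannot be told apart.

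**Figure D1:**
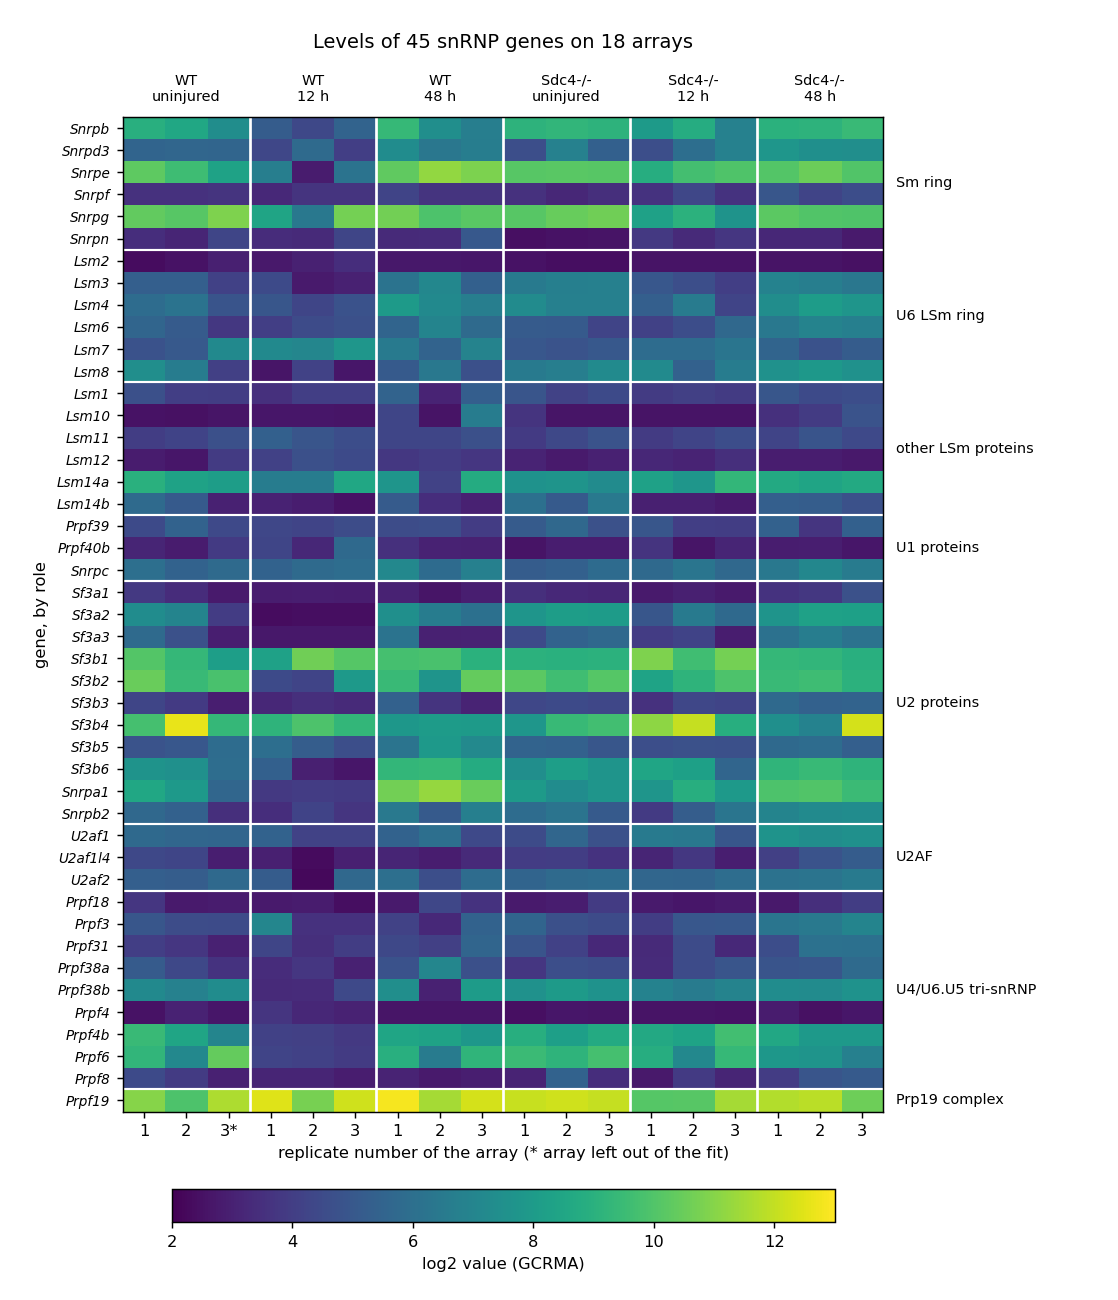
Log2 value of each of the 45 members, in rows by role, on each of the 18 arrays, in columns by group and replicate, with dark blue low and yellow high. The WT 12 h columns hold the darkest cells for Snrpa1, Sf3a2, Prpf4b and Prpf6, and the array left out (marked with an asterisk) lies between the uninjured and the 12 h columns for many members.

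**Figure D2:**
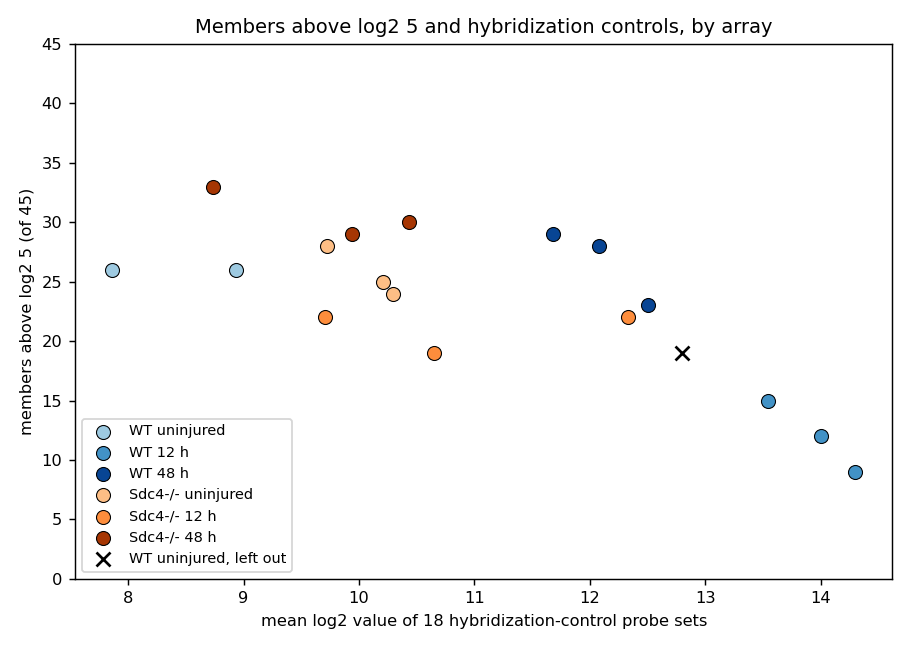
Number of members above log2 5 (vertical axis, of 45) against the mean log2 value of 18 hybridization-control probe sets (horizontal axis) on each array, coloured by group. The 3 WT 12 h arrays have the highest control values and the fewest members above 5, and the left-out array, at 12.8 and 19 members, lies next to the WT 48 h arrays on the control axis.

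At 12 h in WT cells, 15 of 45 members fell and 5 rose against uninjured cells (limma, adjusted p under 0.05), with a median difference of -0.96 on the log2 scale. Over all 18194 genes 20.8% fell and 19.6% rose, with a median of 0.09. Because many of those genes lie at background, the closer reading is over genes whose mean log2 value reached 4. There 14 of 34 members fell, which is 41.2%, against 44.6% of 6279 genes, and the medians were -1.38 and -1.56. A rise was called for 2 of the 34 (5.88%) and for 3.34% of the 6279. The fall of the snRNP genes at 12 h was therefore of the size seen over all genes that passed the same filter. With a further quantile normalization 11 members fell and 6 rose, and without uninjured replicate 1 a total of 13 members were called. Without 12 h replicate 2, the array with low Actb, 19 were called. All 12 h arrays were below both uninjured arrays for 48.9% of members and 30.1% of all genes, and, where the mean reached 4, for 55.9% of members and 59.5% of genes.

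From 12 h to 48 h in WT cells, 15 members rose and 2 fell, against 9.27% and 5.90% of all genes. Among genes whose mean reached 4, the share that rose was 44.1% of the 34 members and 26.3% of all 6279, with median differences of 1.71 and 0.81, and a fall was called for 0 of 34 in limma and for 1.18%. With a further quantile normalization 10 members rose and 4 fell, and after a shift to a common 75th percentile 15 rose and 0 fell. The 17 called members became 3 when the arrays of these 2 groups were fitted alone and 8 with the hybridization controls in the model. Of the 15 members that fell at 12 h, 11 rose again by 48 h: Lsm3, Lsm8, Prpf4b, Prpf6, Sf3a2, Sf3b2, Sf3b6, Snrpa1, Snrpb, Snrpb2 and Snrpe. The other 4, Lsm14b, Prpf38b, Sf3a3 and U2af1l4, were not called between 12 h and 48 h. Lsm4, Lsm6, Prpf38a and Sf3b5 rose from 12 h to 48 h without a called fall at 12 h. The falls and these rises share the 12 h arrays, so they are not independent of each other.

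Against uninjured cells, only 1 of 45 members was lower at 48 h in WT cells and 4 were higher. Over all genes 9.39% were lower and 5.47% higher. Among genes whose mean reached 4, 0 of 34 members fell in limma, while 14.2% of 6279 genes did, and 3 (8.82%) rose against 5.18%. Counted over all 45 members at an unadjusted p under 0.05, 5 were lower and 8 were higher, against 2829 and 2729 of all 18194 genes. The count of 5 called members was 2 without uninjured replicate 1 and 3 without uninjured replicate 2.

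**Figure D3:**
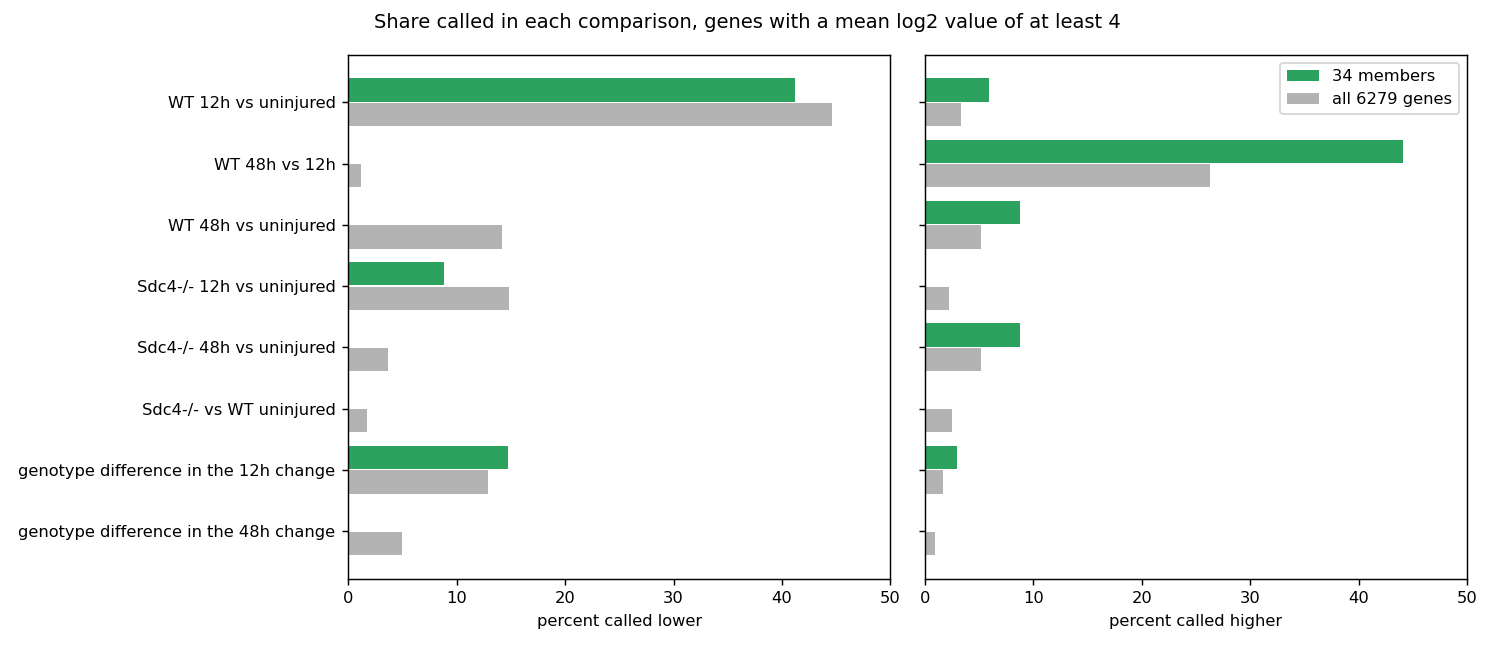
Percent of 34 members (green) and of all 6279 genes (grey) whose mean log2 value reached 4 that were called lower (left) or higher (right) at an adjusted p under 0.05 in each of the 8 comparisons. The green and grey bars are close for falls at 12 h in WT cells (41.2% and 44.6%) and apart for rises from 12 h to 48 h (44.1% and 26.3%).

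The Sm ring was measured by 6 genes, of which Snrpe and Snrpb fell at 12 h in WT cells (33.3%). Over all genes 20.8% fell, and 44.6% of those whose mean reached 4. Snrpe, a small subunit of the ring, was at 10.27 and 9.60 in uninjured WT cells, at 6.69, 2.86 and 6.17 at 12 h, and at 10.31, 11.21 and 10.83 at 48 h. Its 12 h arrays lay below every other array of the series, and the lowest of them was replicate 2, the array with low Actb. The difference was -4.69 ± 0.83 (SE), a fall of 25.8-fold (adjusted p = 0.0011), and the rise from 12 h to 48 h was 5.55 ± 0.75. Snrpe in Sdc4-/- cells was at 10.15, 10.17 and 10.14 uninjured and at 8.85, 9.73 and 9.97 at 12 h, a difference of -0.64 that was not called.

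Snrpb, which codes for the B and B′ proteins of the ring, was at 8.93 and 8.56 in uninjured WT cells, at 5.22, 4.40 and 5.52 at 12 h and at 9.35, 7.44 and 6.71 at 48 h. It fell by 3.70 (adjusted p = 0.0013) and rose by 2.79 from 12 h to 48 h. Snrpg varied widely between the WT 12 h arrays (SD 2.14). These arrays were at 8.42, 6.41 and 10.70 against 10.36 and 10.15 in uninjured cells, and the difference of -1.74 was not called (adjusted p = 0.12). In Sdc4-/- cells the mean of Snrpg was 10.40 (SD 0.23) uninjured and 8.34 (SD 0.71) at 12 h, also not called. Snrpd3 went from 5.59 to 4.72 to 6.81 on average in WT cells, none of it called. Snrpf was near background in WT cells, at 3.27 to 4.25, and was called in 1 comparison, a rise of 1.18 at 48 h in Sdc4-/- cells. Snrpn, the Sm protein of brain and heart, was read here through 1 probe set at background, since its brighter probe sets are shared with Snurf. The brightest of these averaged 7.21 in uninjured WT cells, 4.97 at 12 h and 7.61 at 48 h. The next brightest went from 6.15 to 5.40 at 12 h, and both falls were called (limma, adjusted p = 0.0039 and 0.022). Their genotype differences in the 12 h change, -3.68 and -1.51, were called too (limma, adjusted p = 0.0046 and 0.0084). Another shared set rose from 2.26, at background, to 4.73 at 12 h, so the shared sets did not move one way.

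In the U6 LSm ring the members did not move one way. Lsm8, the subunit that distinguishes the U6 ring from the cytoplasmic ring, was at 7.45 and 6.63 in uninjured WT cells, at 2.64, 4.15 and 2.65 at 12 h and at 5.13, 6.40 and 4.68 at 48 h. It fell by 3.89 at 12 h (adjusted p = 0.00055) and rose by 2.25 to 48 h, to a level whose arrays all lay below both uninjured arrays. Lsm3 was at 5.35 and 5.34 uninjured and at 4.47, 2.78 and 3.00 at 12 h, and it fell by 1.93 in WT cells and by 2.13 in Sdc4-/- cells (adjusted p = 0.011 and 0.014). Lsm4 and Lsm6 had 12 h differences of -1.36 and -0.96 that were not called, and rose by 2.64 and 1.68 from 12 h to 48 h.

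Lsm7 went the other way. It was at 4.77 and 5.09 in uninjured WT cells, at 7.21, 7.07 and 7.79 at 12 h and at 6.53, 5.50 and 6.92 at 48 h. Every array after injury was above both uninjured arrays, with a rise of 2.42 ± 0.36 at 12 h (5.37-fold, adjusted p = 0.00033) and of 1.39 ± 0.36 at 48 h. The array left out was at 7.23, inside the range of the 12 h arrays. Lsm7 in Sdc4-/- cells was at 4.82 to 5.03 uninjured and at 5.87, 5.89 and 6.28 at 12 h, a difference of 1.09 that was not called. Lsm2 also rose at 12 h in WT cells, by 0.61, but all its values lay between 2.38 and 3.42, at background.

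Of the other LSm proteins, Lsm14b fell in both genotypes. Its protein binds messenger RNA in cytoplasmic granules. It was at 5.82 and 5.12 in uninjured WT cells and at 3.04, 2.88 and 2.54 at 12 h, and at 6.07, 5.11 and 6.44 in uninjured Sdc4-/- cells and 2.97, 2.96 and 2.804 at 12 h. The falls were 2.65 in WT and 2.96 in Sdc4-/- cells (adjusted p = 0.0026 and 0.0029), and in each genotype all 12 h arrays lay below all uninjured arrays. By 48 h Lsm14b was at 5.18, 3.43 and 3.00 in WT and at 5.35, 5.25 and 4.73 in Sdc4-/- cells. Lsm12 rose by 1.69 at 12 h in WT cells, from 2.82 and 2.67 to 4.14, 4.70 and 4.47, still below 5 on every array, and the 2 other probe sets of the gene did not follow (0.31 and -0.09). Lsm11 rose by 0.85, from 3.99 and 4.21 to 5.36, 4.89 and 4.59, and lost its call without 7 of the 17 arrays in turn. Lsm1, Lsm10 and Lsm14a were not called in any comparison.

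Of the 3 U1 genes, 0 were called at 12 h in WT cells by limma, and 1, Prpf40b, had an unadjusted p under 0.05. Over all genes 20.8% fell and 19.6% rose. Snrpc, the U1-C protein that helps pair U1 with the start of the intron, was at 6.04 and 5.47 uninjured, at 5.44, 5.81 and 5.93 at 12 h and at 7.15, 5.85 and 6.78 at 48 h. Its 12 h difference was -0.02 ± 0.36, and with a further quantile normalization it turned to a rise of 2.28 (adjusted p = 0.0025). Prpf39 was at 3.95 to 5.45 and Prpf40b at 2.83 to 5.74 on the WT arrays.

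Of the U2 proteins, 6 of 11 fell at 12 h in WT cells (54.5%) with a median difference of -1.77. Over all genes 20.8% fell with a median of 0.09. The values were 44.6% and -1.56 for genes whose mean reached 4. The 11 were not filtered by their mean, which was 3.24 for Sf3a1. Snrpa1 codes for U2 A′, which binds the U2 RNA together with U2 B″, the product of Snrpb2. Snrpa1 was at 8.55 and 7.89 in uninjured WT cells, at 3.81, 3.96 and 3.88 at 12 h, and at 10.67, 11.28 and 10.50 at 48 h, and these 3 ranges do not overlap. It fell by 4.34 ± 0.35 at 12 h (adjusted p = 7.2e-06), to the background of the arrays, rose from there by 6.93 ± 0.31 to 48 h (adjusted p = 7.6e-08) and stood 2.60 ± 0.35 above uninjured cells at 48 h (6.04-fold, adjusted p = 0.00056).

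Snrpa1 in Sdc4-/- cells was at 8.0, 7.35 and 7.74 uninjured, at 7.74, 8.90 and 7.92 at 12 h and at 9.92, 10.0006 and 9.50 at 48 h. There was no called change at 12 h (0.49), and a rise of 2.11 ± 0.31 at 48 h (4.31-fold, adjusted p = 0.0019). Snrpa1 was thus the 1 member called higher at 48 h against uninjured cells in both genotypes. With the hybridization controls in the model, its WT rise was 2.51 and not called (limma, adjusted p = 0.10). The rise in Sdc4-/- cells kept its call. Snrpb2 was at 5.72 and 5.40 uninjured, at 3.46, 4.22 and 3.68 at 12 h and at 6.45, 5.09 and 6.73 at 48 h in WT cells, and it fell by 1.77 and rose by 2.30.

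The SF3a complex has 3 subunits, and Sf3a2 had the steepest fall of them. It was at 7.37 and 6.97 in uninjured WT cells, at 2.37, 2.41 and 2.39 at 12 h and at 7.48, 6.62 and 6.04 at 48 h. The 12 h arrays were at the floor, with a fall of 4.78 ± 0.43 (adjusted p = 1.4e-05) and a rise of 4.32 ± 0.38 to 48 h. In Sdc4-/- cells Sf3a2 also fell, by 2.22 (adjusted p = 0.0042), from 7.73, 8.10 and 8.02 to 4.94, 6.49 and 5.77. Sf3a3 fell by 2.56 in WT cells, from 5.78 and 4.73 to 2.69, 2.71 and 2.70, and Sf3a1 was at 2.63 to 4.74 on all arrays used.

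The SF3b complex holds the branch point adenosine. Sf3b1, its largest subunit, was at 10.05 and 9.34 in uninjured WT cells and at 8.29, 10.62 and 10.10 at 12 h, a difference of -0.02 ± 0.56 that was not called. Sf3b2 was at 10.47 and 9.47 uninjured, at 4.49, 4.25 and 7.93 at 12 h and at 9.48, 7.68 and 10.38 at 48 h, with a fall of 4.41 ± 0.99 (adjusted p = 0.0046). Sf3b6, the subunit that contacts the branch point, was at 7.66 and 7.51 uninjured, at 5.38, 2.98 and 2.69 at 12 h and at 9.27, 9.36 and 8.76 at 48 h. It fell by 3.90 and rose by 5.45 (adjusted p = 0.0035 and 0.00047). Sf3b5 was not called at 12 h (0.38) and was higher at 48 h by 2.19, at 6.24, 7.90 and 7.16 against 4.84 and 5.0. Sf3b4 ranged from 6.86 to 12.62 with wide spread inside groups and was called in no comparison.

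U2AF recognises the end of the intron as a pair of a large and a small subunit. The large subunit, U2af2, was at 5.32 and 5.25 in uninjured WT cells and at 5.18, 2.22 and 5.72 at 12 h, where the low value is again replicate 2. The small subunit, U2af1, was at 5.76 and 5.62 uninjured and 5.46, 4.17 and 4.16 at 12 h, a difference of -1.09 that was not called. U2af1 in Sdc4-/- cells went from 4.52, 5.63 and 4.73 to 7.63, 7.41 and 7.54 at 48 h, a rise of 2.57 ± 0.51 (5.92-fold, adjusted p = 0.012) with no overlap. U2af1l4, a relative of the small subunit, was low on all arrays, at 2.31 to 5.22, and fell in WT cells by 1.59 at 12 h and by 1.22 at 48 h.

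In the tri-snRNP, 3 of 9 members fell at 12 h in WT cells (33.3%) and 1 rose. Over all genes 20.8% fell and 19.6% rose, and over those whose mean reached 4 the shares were 44.6% and 3.34%. Prpf4b, a kinase associated with the tri-snRNP, was at 9.48 and 8.45 in uninjured WT cells, at 4.11, 4.08 and 3.84 at 12 h and at 8.48, 8.33 and 7.82 at 48 h. It fell by 4.96 ± 0.40 (adjusted p = 7.5e-06), to near background, and rose by 4.20 ± 0.35 to 48 h. In Sdc4-/- cells it was at 8.88, 8.19 and 8.71 uninjured, at 8.66, 8.39 and 9.68 at 12 h and at 8.59, 7.95 and 7.95 at 48 h, and the groups overlapped.

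Prpf6, which bridges U5 to U4/U6, was at 9.25 and 7.14 uninjured, at 4.24, 4.14 and 3.91 at 12 h and at 8.95, 6.60 and 9.18 at 48 h in WT cells, with a fall of 4.10 and a rise of 4.15. Prpf38b fell by 3.32, from 7.23 and 6.82 to 3.33, 3.35 and 4.44, but its 48 h arrays were split, at 7.42, 3.01 and 8.05. Prpf4 rose by 0.55 at 12 h with all its values between 2.44 and 3.71, at background. Prpf3 was at 4.95 and 4.56 uninjured and at 7.04, 3.56 and 3.55 at 12 h, so 1 array stood apart. Prpf8, the protein at the centre of the catalytic core, was read only near background, at 2.73 to 5.48. Prpf19, the ubiquitin ligase of the Prp19 complex, was at 10.99 and 9.92 uninjured and at 12.47, 10.74 and 12.22 at 12 h, a difference of 1.35 that was not called.

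**Figure D4:**
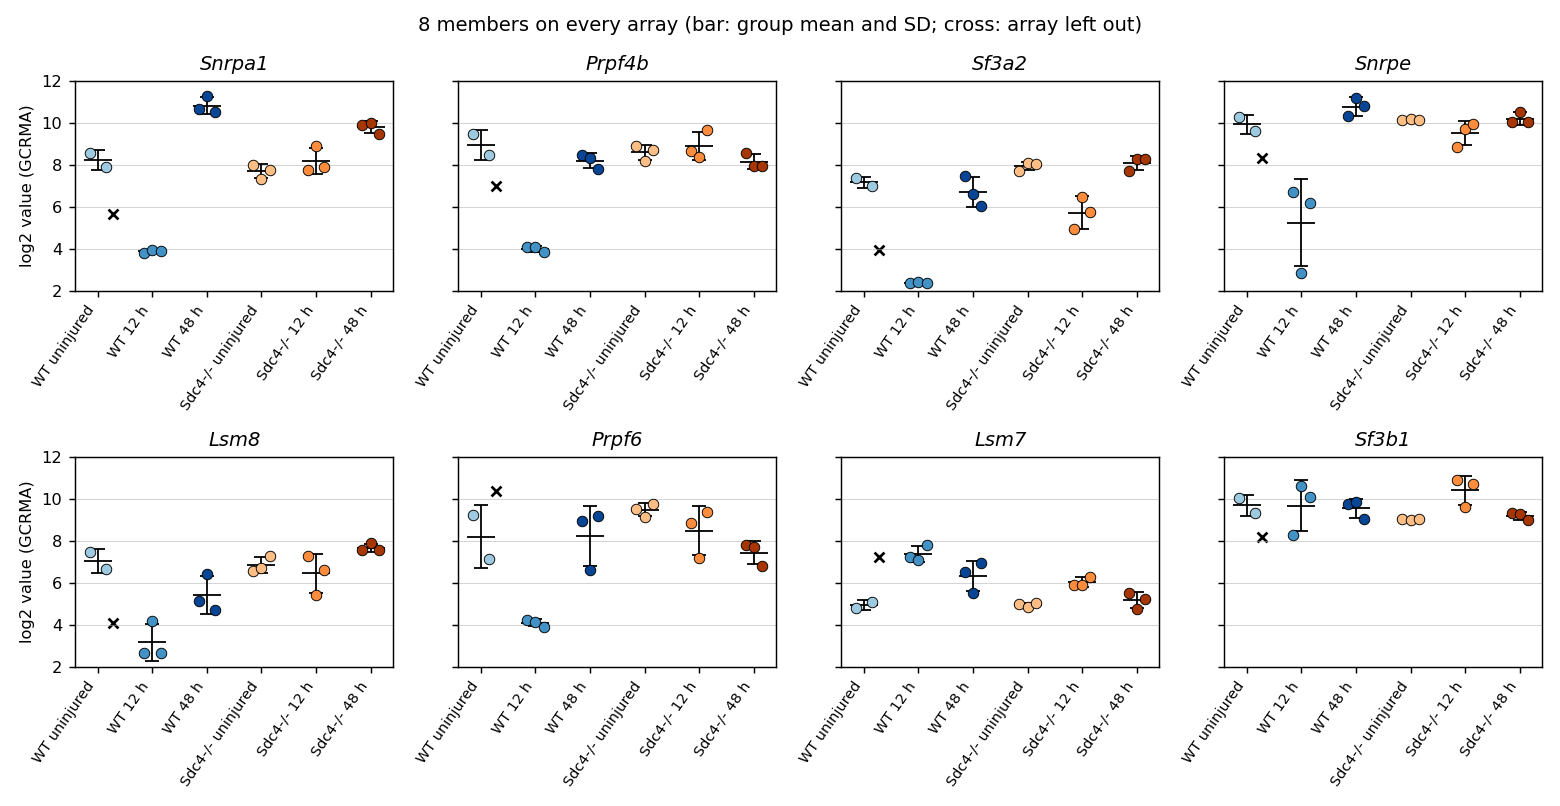
Log2 value (vertical axis) of 8 members on every array in the 6 groups, with the group mean and SD as a bar and the array left out as a cross. Snrpa1, Prpf4b, Sf3a2, Snrpe, Lsm8 and Prpf6 are lowest in WT 12 h cells and higher at 48 h, Lsm7 is highest there, and Sf3b1 lies between 8.15 and 10.89 throughout.

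At 12 h in WT cells, further probe sets of the genes that fell mostly did not fall. Of the 15 members that fell, 11 had further probe sets, 27 in all. Of these 27, 3 also fell, 8 rose and 16 were not called. Most of the 27 were at background, and of the 4 that were above 5 in either group, 2 fell (Prpf6 and Sf3b2) and 0 rose. For Snrpa1 the 2 other probe sets were at 4.40 and 4.54 in uninjured WT cells and differed by 0.12 and -0.26 at 12 h. For Prpf4b, 1 of the 5 others rose, by 0.47, and none of the 5 fell. For Sf3b2 one further probe set fell by 3.37 and another rose by 2.64. Lsm12, Sf3b2, Sf3b4, Prpf6 and Prpf19 were represented by a probe set ending in _x_at, a name Affymetrix gives to sets with probes that can match other transcripts. With such sets left out, 16 members fell and 4 rose at 12 h in WT cells. The rises of Prpf6 and Sf3b2 from 12 h to 48 h were then no longer called.

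The array left out was closer to the 12 h mean than to the uninjured mean for 29 of 45 members, for 8 of the 15 that fell and for 4 of the 5 that rose. With all 18 arrays Lsm2, Lsm11, Lsm14b and U2af1l4 lost their calls at 12 h in WT cells. Snrpa1, Prpf4b, Lsm7, Snrpe, Snrpb, Sf3a2, Sf3b2, Lsm3, Lsm8, Lsm12, Prpf4, Prpf6 and Prpf38b kept theirs. When the level of the hybridization controls was added to the model, 1 of the 20 members called at 12 h in WT cells remained called, Prpf4b. The differences themselves moved unevenly: that of Snrpe went from -4.69 to -4.72 and that of Snrpa1 from -4.34 to -4.47 (adjusted p = 0.42 and 0.058), while that of Snrpb went from -3.70 to -0.31.

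In Sdc4-/- cells few members were called. At 12 h 3 fell (Lsm14b, Sf3a2 and Lsm3) and 0 rose, against 7.23% and 1.48% of all genes, and at an unadjusted p under 0.05 the counts were 6 and 3. Among genes whose mean reached 4 the falls were 8.82% of members against 14.8% of genes, and the rises 0 against 2.26%. After a shift to a common 75th percentile 3 fell and 7 rose, with the median of all probe sets moved from 0.05 to 0.39, and 5 were called without WT 48 h replicate 3. At 48 h 4 rose (U2af1, Snrpa1, Lsm6 and Snrpf) and 0 fell, against 2.65% and 2.59% of all genes, and at an unadjusted p under 0.05 the counts were 11 and 1. Among genes whose mean reached 4 the rises were 8.82% of members against 5.16% of genes, and the falls 0 against 3.68%. Lsm6 went from 5.17, 5.13 and 4.27 to 6.42, 6.93 and 6.77, a rise of 1.85 (adjusted p = 0.031). Snrpf went from 3.55, 3.24 and 3.47 to 4.93, 4.27 and 4.61. With a further quantile normalization 1 member was called at 48 h.

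**Figure D5:**
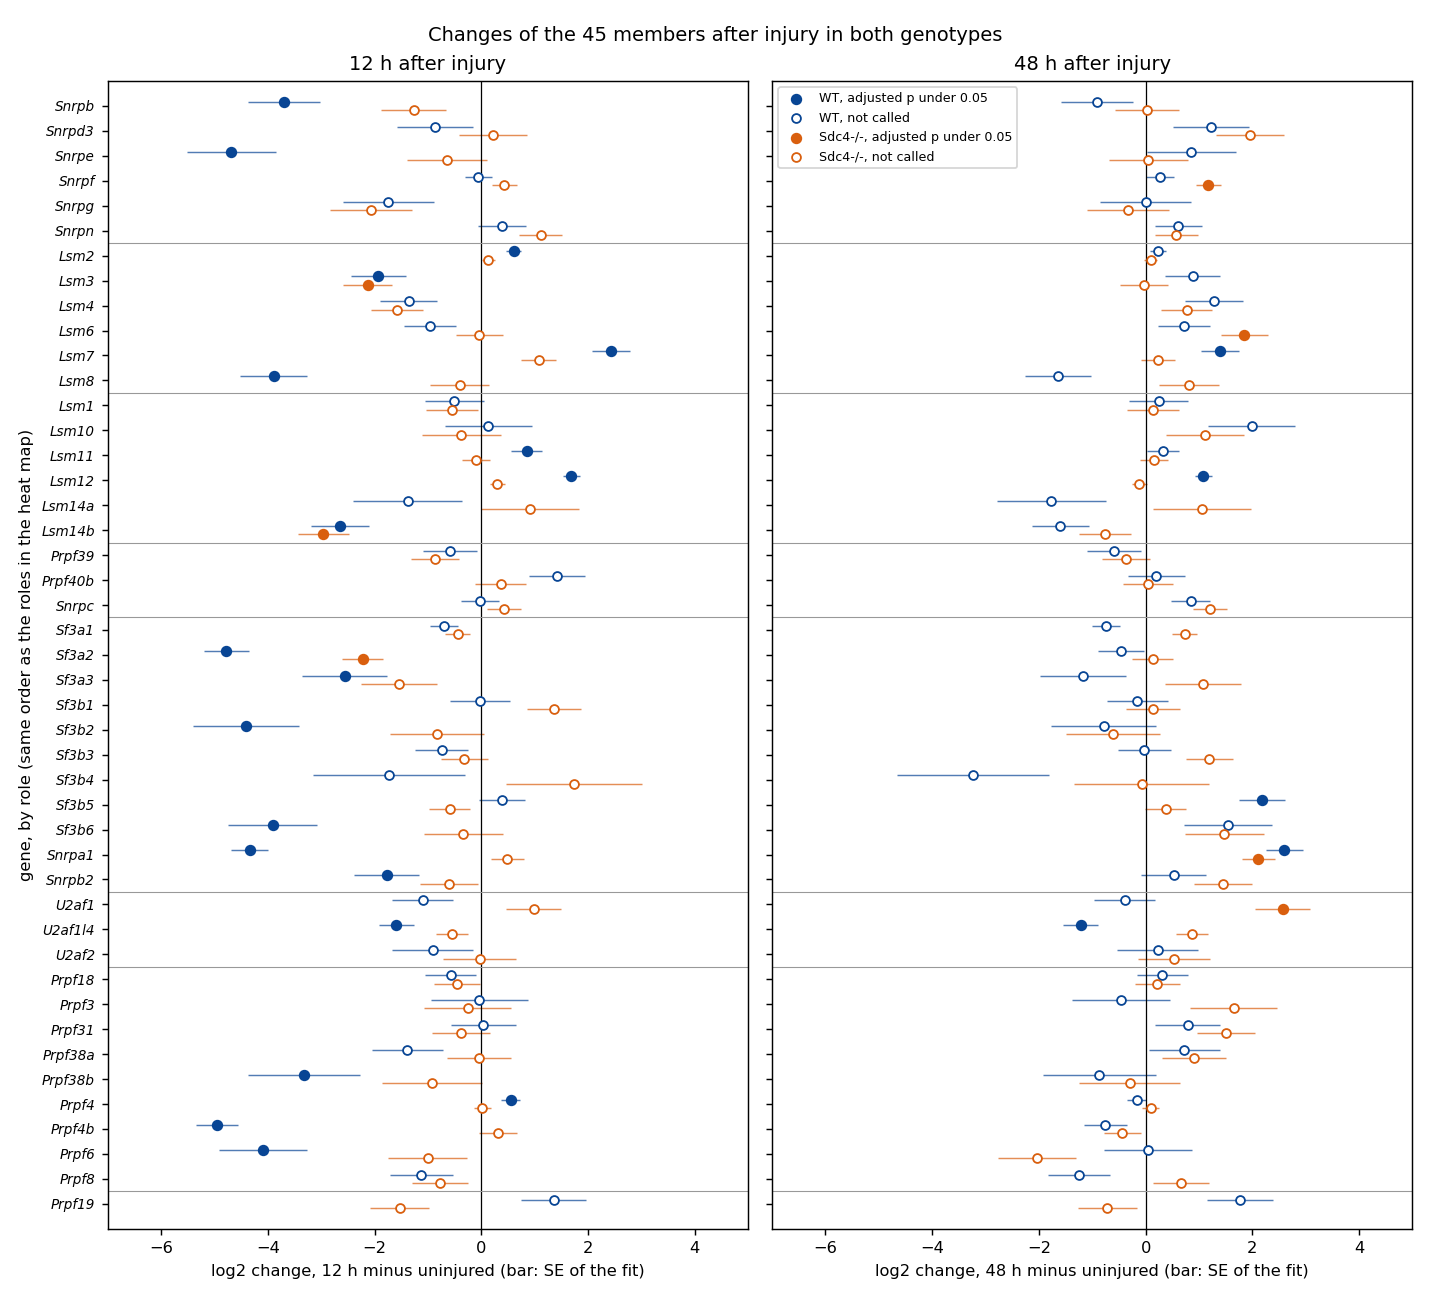
Log2 difference of each of the 45 members from uninjured cells of the same genotype at 12 h (left) and 48 h (right), with the SE of the fit, in WT (blue) and Sdc4-/- (orange) cells; filled points have an adjusted p under 0.05. At 12 h the blue points of Prpf4b, Snrpa1, Snrpe, Sf3b2, Sf3a2 and Prpf6 lie below -4. The orange points of Prpf4b, Snrpa1, Snrpe and Sf3b2 lie above -1, that of Prpf6 lies near -1, and that of Sf3a2 is lower and filled. The genotype difference in this change was not called for Sf3b2 and Prpf6.

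Before injury the genotypes did not differ at the threshold for any member. In limma 0 of 45 were called, against 2.96% of all genes lower and 1.32% higher in Sdc4-/- cells, and the count was 0 also without moderation of the variances. At an unadjusted p under 0.05, 0 were lower and 2 were higher. Of the 6279 genes whose mean reached 4, 1.70% were lower and 2.48% higher. The SE of a difference had a median of 0.55 and ran up to 1.42, so that differences of about 1 could not be seen for many members. Sf3b4 had the largest difference, -2.24.

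The difference between the genotypes in the 12 h change was tested directly, as the WT change minus the Sdc4-/- change. It was called negative for 5 members and positive for 2, against 6.32% and 5.70% of all genes, and among genes whose mean reached 4 negative for 14.7% of members against 12.9% of genes and positive for 2.94% against 1.64%. The 5 were Prpf4b (-5.27 ± 0.53), Snrpa1 (-4.83 ± 0.46), Snrpe (-4.05 ± 1.12), Lsm8 (-3.49 ± 0.83) and Sf3a2 (-2.56 ± 0.57). The share of members was close to that of all genes whose mean reached 4. The count of 7 called members was 3 without WT uninjured replicate 1 and 2 with all 18 arrays. Prpf4b and Snrpa1 kept the call and its direction without each of the 17 arrays in turn and in all 11 other settings tried. The size did not stay: averaged over every probe set of the gene it was -0.83 for Prpf4b (adjusted p = 0.048) and -1.58 for Snrpa1 (adjusted p = 0.019), and with the hybridization controls in the model -7.42 and -4.94. Snrpe kept it without 8 of the 17 arrays in turn and Lsm8 and Sf3a2 without 16. The 2 positive members were Lsm12 (1.39 ± 0.21) and Prpf19 (2.88 ± 0.83), each through a probe set ending in _x_at. Without such sets the values were 0.42 for Lsm12 and -0.51 for Prpf19, and neither was called. With a further quantile normalization 4 members were negative and 4 positive.

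In the 48 h change, the genotype difference was called for U2af1l4 (-2.08 ± 0.44), Sf3a1 (-1.48 ± 0.35) and Lsm12 (1.20 ± 0.21), against 3.64% of all genes negative and 1.03% positive. These 3 were low on most arrays. U2af1l4 went from 4.36 and 4.31 to 3.16, 2.90 and 3.32 in WT cells and from 3.93, 3.98 and 3.61 to 4.06, 4.83 and 5.22 in Sdc4-/- cells. A probe set of U2af1l4 shared with Igflr1 went the other way in Sdc4-/- cells, from 5.37 to 3.81 (limma, adjusted p = 0.00027). Its genotype difference was 1.00, and that of another shared set was -0.41, neither called. Among genes whose mean reached 4, 0 of 34 members were called in limma, against 4.94% of genes negative and 0.924% positive. The count of 3 over all members became 0 with all 18 arrays, 1 without WT uninjured replicate 1 and 6 without WT 48 h replicate 1, and at an unadjusted p under 0.05 it was 6 negative and 4 positive.

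Other genes of the spliceosome that lie outside the rule moved in the same comparison. Their counts are to be read against the 20.8% of all genes and 44.6% of genes whose mean reached 4 that fell at 12 h in WT cells. Of 14 further U2 and branch point factors, 8 fell (57.1%) and 0 rose, with a median of -2.71, among them Htatsf1 (-5.0) and Sugp1 (-2.94). Of 22 further U1, tri-snRNP and minor spliceosome proteins 7 fell (31.8%), among them Luc7l2 (-5.77) and Zcrb1 (-3.62), and 0 rose. Of 23 Prp19 complex and catalytic step factors 6 fell (26.1%) and 1 rose, with Bud31 at -4.97 and Cwc15 at -3.31. Bud31 then rose by 6.75 and Cwc15 by 4.18 from 12 h to 48 h. Of 18 factors that assemble and import snRNPs, such as the SMN complex, 1 fell (Strap, -2.83) and the median was -0.13. At 12 h in Sdc4-/- cells 1, 1, 0 and 0 genes of the lists of 22, 14, 23 and 18 fell and 0 rose in each. Falls were fewer there over all genes as well, at 7.23%, and at 14.8% of genes whose mean reached 4. The shares that rose were 1.48% and 2.26%.

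Promoter stretches are shown for members that were called both lower at 12 h and higher from 12 h to 48 h, a set chosen by those calls. RefSeq start sites (GRCm38.p6) were at hand for 37 of the 45 members and for 10 of the 11 that fell at 12 h and rose to 48 h. In the 250 bases before the start site, the letters CCGGAAG, the core bound by ETS factors, were present on either strand in 12 of 37 members (32.4%) and in 7.83% of 27025 genes. Among the 10 members that fell and returned, 5 held them, 8 held GGGCGG, 1 held CCAAT and 0 held any of the other strings. One stretch of each is given below on the strand of the gene, with the 7 letters or their reverse complement in capitals.
Sf3a2, chr10:80798648-80798676: cgcctttgctcCCGGAAGggatcgcttcg
Sf3b2, chr19:5295458-5295486: gggacgtggattacgcaaCCGGAAGtttc
Sf3b6, chr12:4817527-4817555: cggtccgcaatCCGGAAGcgttctggagc
Snrpb2, chr2:143063030-143063058: ttggccgccctCTTCCGGcgcggggaagc
Prpf4b, chr13:34875447-34875475: gccccctagccCCGGAAGttacgttccgc
The letters end 4 to 69 bases before the start site of the promoter entry used. For Prpf4b that site lies 709 bases inside the RefSeq gene. GGGCGG, a GC box, was in 54.1% of members and 35.4% of all genes, and CCAAT in 43.2% and 37.5%. TATAAA was in 5.41% of members and 14.3% of all genes, CACGTG in 8.11% and 6.86%, and AAGATGGC (a YY1 site) in 2.7% and 1.83%. The palindromic NRF1 site was in 0 of 37 members and 0.877% of all genes. All 7 strings were searched on both strands, and a match is a description of the letters and not of binding. No match was found for CCGGAAG in the promoters of Snrpa1, Snrpe, Lsm3, Lsm8 and Prpf6.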

How the data were processed

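RNA from 5000 cell equivalents was amplified in rounds of T7 transcription and hybridized to Affymetrix mouse arrays. The log2 values are those the authors deposited, after GCRMA normalization in Spotfire DecisionSite 2. Of 45101 probe sets, the platform annotation gave 34958 a single gene symbol, 932 several and 9211 none. One linear model with the 6 groups was fitted to 17 arrays in limma 3.58.1 (R 4.3.3), with moderated variances (11 residual and 1.20 prior degrees of freedom) and p-values adjusted by Benjamini-Hochberg across every probe set, and a gene was called at an adjusted p under 0.05. Counts at an unadjusted p have the count over all genes beside them only for 48 h in WT cells. Elsewhere they are not set against other genes. Error is given as the SE of the fit. In a test on simulated data, 86 of 100 probe sets changed by a log2 value of 3 and 39 of 100 changed by 1 were recovered. The depth of an array is not a count, and how precise a value is depends on how few arrays there were.

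The members, role groups and gene lists were chosen with earlier results of these data known. Named were all members of role groups of 8 or fewer, the 4 with the highest mean of larger groups, the largest change of each role group at 12 h in WT cells, those called for a genotype difference, Snrpn, Snrpb and Snrpa1, and 2 genes of each further list. Other members are named because they were called or read near background, and were chosen after their values were seen. Alternatives were the arrays fitted, moderation, threshold, scaling, a filter on low values, the probe set per gene (1 of them, without sets ending in _x_at, chosen after seeing the data), a covariate, a replicate block and the removal of each array. Promoters came from RefSeq.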

Additional observations from a re-analysis of the deposited data

Results flagged for a closer look

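The change after injury differed between the genotypes for 7 members at 12 h and 3 at 48 h, by limma's test of the difference itself (WT change minus Sdc4-/- change). At 12 h the difference was -5.27 for Prpf4b, -4.83 for Snrpa1, -4.05 for Snrpe, -3.49 for Lsm8 and -2.56 for Sf3a2, with adjusted p of 0.00016, 0.00011, 0.037, 0.019 and 0.014. It was 1.39 for Lsm12 and 2.88 for Prpf19, with adjusted p of 0.0023 and 0.043. At 48 h it was 1.20 for Lsm12, -1.48 for Sf3a1 and -2.08 for U2af1l4, with adjusted p of 0.0090, 0.038 and 0.023. Probe sets of U2af1l4 shared with Igflr1 gave 1.00 and -0.41 at 48 h, neither called. Without each array in turn, Prpf4b, Snrpa1 and Lsm12 (at both times) kept their calls in all 17 fits, Prpf19 in 5 and Sf3a1 in 9. Lsm12 lost both calls with all 18 arrays, with the mean of its probe sets, with the hybridization controls in the model and without sets ending in _x_at, with values of 0.42 to 1.00 at 12 h and 0.50 to 0.95 at 48 h. Genotype and strain cannot be told apart here. The hybridization controls were highest on the WT 12 h arrays, at 13.5 to 14.3, and with their level in the model 2 differences were called at 12 h and 0 at 48 h. No group was large enough for a test of single outlying arrays.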

How the results depend on the processing

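With 2 or 3 arrays a group and many 12 h values at background, a difference near 1 on the log2 scale was seldom detectable, and a fall to background or a rise from it depends on the floor of the probe set. When the level of the hybridization controls was added to the model, the number of members called went from 20 to 1 at 12 h in WT cells, from 5 to 2 at 48 h, from 17 to 8 between 12 h and 48 h, from 7 to 2 for the genotype difference at 12 h and from 3 to 0 at 48 h. The 2 at 48 h in WT cells were Lsm4 and Prpf4b, which were not among the 5 called without the controls. None of those 5, Snrpa1 included, kept its call. With all 18 arrays the number called was 1 at 48 h in WT cells, 2 at 48 h in Sdc4-/- cells, 2 for the genotype difference at 12 h and 0 at 48 h. A shift to a common 75th percentile gave 10 at 48 h in WT cells and 10 at 12 h in Sdc4-/- cells, where it moved the median of all probe sets from 0.11 to 0.43 and from 0.05 to 0.39. Further quantile normalization gave 1 at 48 h in Sdc4-/- cells and 1 for the genotype difference at 48 h. Only the groups compared gave 3 between 12 h and 48 h in WT cells and 8 at 48 h in Sdc4-/- cells. The study's threshold, a fold and an unadjusted p, gave 5 at 12 h in Sdc4-/- cells and 5 for the genotype difference at 48 h. Tests limited to probe sets whose mean reached 4 gave 3 at 48 h in WT cells and 1 for the genotype difference at 48 h. That limit leaves out U2af1l4, Sf3a1 and Lsm12, with means of 3.64, 3.24 and 3.38. These were the 3 members called for that difference, so the 1 called is another member. The causes of these changes in the counts were not tested.

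Leaving out 1 array at a time gave 13 to 21 members called at 12 h in WT cells, 2 to 7 at 48 h, 14 to 18 between 12 h and 48 h, 2 to 5 and 3 to 6 at 12 h and 48 h in Sdc4-/- cells, 3 to 10 for the genotype difference at 12 h, 1 to 6 at 48 h and 0 throughout between uninjured genotypes. The lowest counts at 12 h and 48 h in WT cells and for both genotype differences came without WT uninjured replicate 1. The 5 at 12 h in Sdc4-/- cells came without WT 48 h replicate 3.

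Among single members, direction turned for Snrpc at 12 h in WT cells with quantile normalization (2.28), for U2af1l4 at 12 h and 48 h with the hybridization controls in the model (0.52 and 0.19), and for Lsm12 between 12 h and 48 h with the mean of all probe sets (0.086). With no probe sets ending in _x_at, an alternative chosen after seeing the data, it turned for Lsm12 between 12 h and 48 h (0.93), Prpf6 at 48 h in WT cells (-1.20) and Prpf19 for the genotype difference at 12 h (-0.51). The causes were not tested. Over the 51 results of named members that were called, the call was lost in 126 of 548 fits under other settings and in 75 of 867 fits without 1 array.

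Arrays with the same replicate number did not deviate together: correlations were -0.13 to 0.17, and in 0 of 15 pairs of groups were all above 0.1. With the replicate number as a block the counts were 19, 4 and 18 in WT cells (12 h, 48 h, 12 h to 48 h), 4 and 4 in Sdc4-/- cells, 0 between uninjured genotypes, and 5 and 2 for the genotype differences.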
